A study of Mus musculus with 9 samples.

Results

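C1qa, C1qb and C1qc, which encode the chains of complement component C1q, and 7 genes in general use as macrophage markers (Csf1r, Adgre1, Ms4a7, Fcgr1, Itgam, Cd68 and Lyz2) were examined in mouse bladders carrying MB49 tumours. They were taken by symbol from the array's probe-to-gene table, 10 of the 17097 genes on it, and each was read from the probe set with its highest mean over the 9 arrays. All 10 passed the filter on low signal, which kept 11969 genes. The study asked what alpha1-oleate, a complex of an alpha-lactalbumin peptide with the fatty acid oleate, does to bladder tumours and to healthy bladders. RNA of whole bladders from female C57BL/6J mice was hybridised to Affymetrix mouse PM arrays, and the values are log2 intensities.

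Experiment 1 holds 5 arrays and experiment 2 holds 4. For the tumours, bladders were coated with poly-L-lysine and given MB49 cells, a mouse bladder carcinoma line, on day 0. Treatment into the bladder lumen was given 5 times, every other day from day 3 to day 11, and the bladders were taken on day 12. In experiment 1 the tumour-bearing mice received PBS (sham) or alpha1-oleate at 1.7, 8.5 or 17 mM, with a healthy bladder given PBS as control. Experiment 2 holds a healthy PBS bladder, a sham-treated tumour bladder and healthy bladders labelled as sampled 24 h or 7 d after 17 mM alpha1-oleate. Healthy PBS and tumour PBS thus have 2 arrays each, 1 per experiment, and each treated group has 1. The labels name no animals or pools, so the p-values below measure only the spread between these arrays, which may be technical. In the comparisons of groups, all of that spread is between the paired PBS arrays, and how far treated bladders of 1 dose vary among themselves was not measured.

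The experiments were normalized apart: array medians lay between 4.42 and 4.45 log2 in experiment 1 and between 4.20 and 4.24 in experiment 2, so levels are compared within an experiment. The array labelled healthy, 17 mM, 24 h went against its label. Over all genes above the filter it correlated with the 17 mM tumour array at r = 0.978. Within its own experiment it correlated with the sham-treated tumour at 0.858 and with the healthy PBS array at 0.956. The proliferation gene Mki67 read 6.83 on it, against 3.41 on that healthy array and 9.25 on the sham-treated tumour of experiment 2. It is a group of its own, so no comparison among the tumour and PBS arrays takes a mean from it, and it is called by its label below. The urothelial and muscle lists and the proliferation list followed the dose. In the 17 mM tumour against the sham-treated tumours, 9 of 9 urothelial and 7 of 7 smooth muscle genes were higher and 5 of 5 proliferation genes were lower in limma's fit. The part of these shifts in the values of the macrophage genes was not tested. In such bulk tissue, fewer cells of a type and less RNA per cell cannot be told apart.

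C1q is the recognition molecule of the classical complement pathway. Its A, B and C chains assemble into one hexameric bundle that binds antibody complexes and dying cells and carries the proteases C1r and C1s. Unlike most complement proteins it is made mainly by macrophages and related cells, not by hepatocytes, and C1q-rich macrophages are common in tumours. The transcription factor PU.1 (Spi1), which binds purine-rich sites around a GAGGAA core, acts at many macrophage genes.

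The genes C1qb, C1qc and C1qa are neighbours in that order on chromosome 4, with no protein-coding gene between them. RefSeq promoter windows (build GRCm38.p6, 250 bases before to 50 after the start) were given for 7 of the 10 genes, and C1qa, Csf1r and Adgre1 had none. The windows of the C1q genes with an entry are shown because these genes moved together on every array, that of Fcgr1 because it changed most, and that of Itgam because it held the most GAGGAA matches. They cover chr4:136886151-136886450 (minus strand), chr4:136892865-136893164 (minus strand), chr3:96293920-96294219 (minus strand) and chr7:128062390-128062689 (plus strand), written 5′ to 3′ along the gene. Capitals mark GAGGAA or, for a match on the other strand, its reverse complement TTCCTC.
C1qb: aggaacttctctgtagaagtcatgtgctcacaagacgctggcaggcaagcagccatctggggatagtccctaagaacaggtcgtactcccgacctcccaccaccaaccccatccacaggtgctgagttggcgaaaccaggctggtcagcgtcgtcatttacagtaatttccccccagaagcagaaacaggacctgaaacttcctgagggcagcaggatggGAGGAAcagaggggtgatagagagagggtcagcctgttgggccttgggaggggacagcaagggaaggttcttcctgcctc
C1qc: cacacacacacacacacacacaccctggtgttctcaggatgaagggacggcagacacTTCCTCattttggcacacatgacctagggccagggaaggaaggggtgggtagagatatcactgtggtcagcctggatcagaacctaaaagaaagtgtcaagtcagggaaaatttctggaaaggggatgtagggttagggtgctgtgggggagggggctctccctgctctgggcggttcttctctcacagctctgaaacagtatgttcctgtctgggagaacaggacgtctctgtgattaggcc
Fcgr1: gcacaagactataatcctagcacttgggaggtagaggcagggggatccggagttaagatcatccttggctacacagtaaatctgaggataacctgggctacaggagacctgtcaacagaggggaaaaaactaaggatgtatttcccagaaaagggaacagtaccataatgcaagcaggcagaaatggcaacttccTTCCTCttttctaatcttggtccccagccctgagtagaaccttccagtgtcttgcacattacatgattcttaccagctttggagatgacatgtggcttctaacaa
Itgam: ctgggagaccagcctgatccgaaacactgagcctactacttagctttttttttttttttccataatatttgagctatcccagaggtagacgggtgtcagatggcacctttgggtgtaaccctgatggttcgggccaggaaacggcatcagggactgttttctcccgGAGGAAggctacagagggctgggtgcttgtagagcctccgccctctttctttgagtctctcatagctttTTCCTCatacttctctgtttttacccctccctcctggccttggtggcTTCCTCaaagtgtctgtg
GAGGAA, searched on both strands, was present for 6 of the 7 genes, which are C1qb, C1qc, Ms4a7, Fcgr1, Itgam and Cd68 (Ms4a7 in 1 of its 2 windows), and in 28.3% of all 32851 promoters of that length. The match began 30 bases before the start in C1qb, 193 in C1qc and 55 in Fcgr1, and Itgam held 3. TGCTGA, a core of the sites of MAF factors, was present for 2 of the 7 genes, C1qb and Lyz2, against 19.5% of all promoters. TATAAA was found for 0 of the 7 genes and in 13.6% of all promoters. These matches describe letters in the windows and show no binding.

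All 10 genes were higher in sham-treated tumour bladders than in healthy bladders, by 3.07-fold (Lyz2) to 19.2-fold (Fcgr1). On the 1 tumour array at 17 mM, 50.5% (Fcgr1) to 102% (Ms4a7) of the excess of experiment 1 was still present in linear signal. On every gene, each of the 5 tumour arrays lay above the healthy PBS array of its own experiment. The share of all genes for which this holds was not counted. In limma's fit over all genes with the experiment as a block, 10 of 10 rose in the tumour at adjusted p values of 0.0024 to 0.007, against 28.6% of all genes tested. Their median difference was 2.67 log2, and that of all genes was -0.005. The genes follow in order of their roles, with each level given as log2 intensity.

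**Figure D1:**
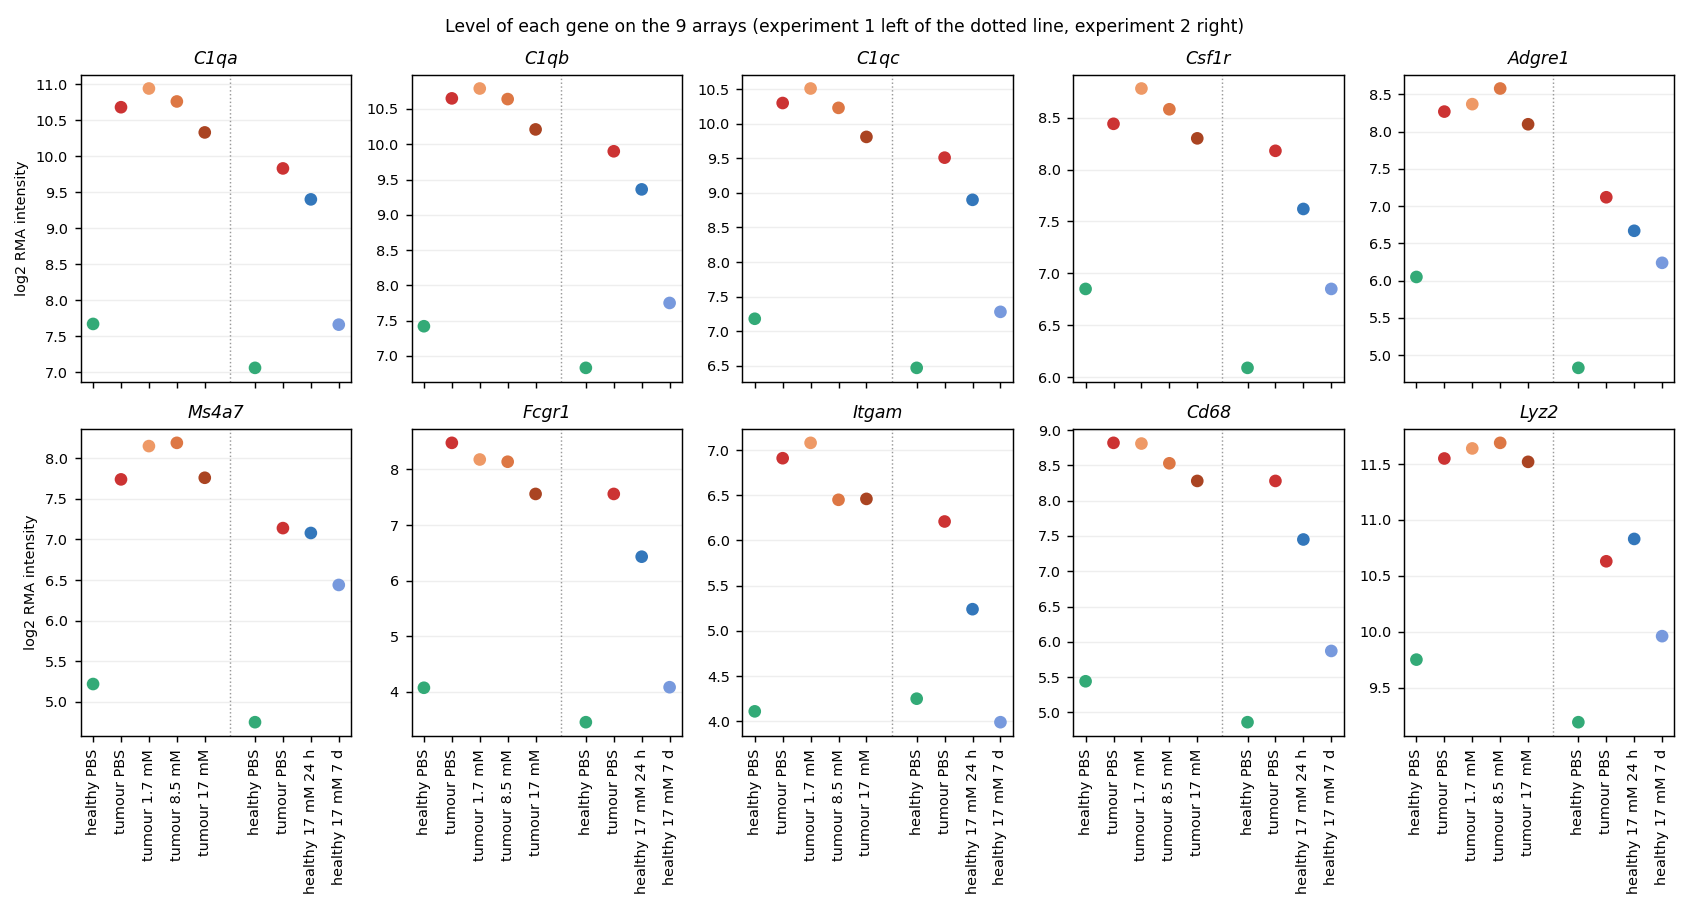
Log2 RMA intensity of each of the 10 genes on each of the 9 arrays, 1 point per array, with experiment 1 left and experiment 2 right of the dotted line and an axis range of its own in each panel. For all 10 genes the tumour arrays lie above the healthy PBS array of their own experiment, and the array labelled healthy, 17 mM, 24 h lies above the healthy PBS array of experiment 2.

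C1qa (probe set 1417381_PM_at) read 7.67 in the healthy and 10.68 in the sham-treated bladder of experiment 1, then 10.94 at 1.7 mM, 10.76 at 8.5 mM and 10.33 at 17 mM. In experiment 2 it read 7.06 in the healthy PBS bladder, 9.83 in the sham-treated tumour, 9.40 on the array labelled healthy, 17 mM, 24 h and 7.66 on the 7 d array. The 4 tumour arrays of experiment 1 thus span 0.61 log2 and all lie far above the healthy bladder. C1qb (1417063_PM_at) read 7.42, 10.65, 10.79, 10.64 and 10.21 in experiment 1 (healthy, sham, 1.7, 8.5 and 17 mM) and 6.83, 9.90, 9.36 and 7.75 in experiment 2 (healthy, sham, 24 h and 7 d). C1qc (1449401_PM_at) read 7.18, 10.30, 10.51, 10.23 and 9.81 in experiment 1 and 6.47, 9.51, 8.90 and 7.28 in experiment 2. For each C1q gene the 1.7 mM array was the highest and the 17 mM array the lowest of the 4 tumour arrays of experiment 1, while the sham-treated and 8.5 mM arrays lay within 0.08 log2 of each other.

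In sham-treated tumours C1qa rose by 2.89 log2 (SE 0.11, 7.41-fold), C1qb by 3.15 (SE 0.098, 8.88-fold) and C1qc by 3.08 (SE 0.09, 8.46-fold), each at an adjusted p of 0.0024 in limma's fit. The difference in the 2 experiments was 3.01 and 2.77 for C1qa, 3.23 and 3.07 for C1qb, and 3.12 and 3.04 for C1qc. Taken as differences from the healthy bladder of the same experiment, the C1q genes stayed within 0.10 to 0.32 log2 of each other on all 7 other arrays. At 17 mM, for example, C1qc stood 2.63 and C1qb 2.79 above healthy, and 7 d after treatment of a healthy bladder the lowest was C1qa at 0.60 and the highest C1qb at 0.92. The C1 protease genes C1ra (0.305) and C1s1 (0.315) did not pass in the same comparison, and Serping1, the inhibitor of these proteases, fell by 1.64 log2. The share of all genes tested was 28.6% for rises and 28.6% for falls in the tumour, and the list counts here and below stand beside it. Of the 17 other complement genes tested, 7 rose and 5 fell (median 0.34), the largest rises being those of properdin (Cfp, 2.48), the C3a receptor gene C3ar1 (2.42) and the C5a receptor gene C5ar1 (2.105).

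Csf1r, the receptor for CSF1 and IL-34 on which most macrophages depend for survival, read 6.85, 8.44, 8.78, 8.58 and 8.30 in experiment 1 and 6.09, 8.18, 7.62 and 6.85 in experiment 2 (1423593_PM_a_at). It rose by 1.84 log2 in the tumour (SE 0.164, adjusted p = 0.00525 in limma's fit), with 1.59 in experiment 1 and 2.09 in experiment 2. Within each experiment its tumour arrays lay above the healthy PBS array. Of the 8 genes tested on the CSF1 and monocyte recruitment list, 7 rose in the tumour, and the largest rises were those of the monocyte chemokines Ccl2 (5.33) and Ccl12 (5.11) and of the ligand Csf1 (3.55). At 17 mM 3 of these 8 fell, where 10.6% of all genes did, Ccl12 at -1.74, Il34 at -1.67 and Csf1 at -1.43 log2, while Ccl2 differed from the sham-treated tumours by -1.60 (adjusted p = 0.0597 in limma's fit). Csf1 itself read 10.07 in the sham-treated tumour of experiment 1, then 9.51, 8.95 and 8.68 with rising dose, and 6.60 in the healthy bladder. Csf1 was thus lower at each higher dose, while Csf1r was highest at 1.7 mM; the difference between ligand and receptor was not tested.

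Adgre1, which encodes the adhesion receptor F4/80 of mouse tissue macrophages, read 6.05, 8.27, 8.37, 8.58 and 8.10 in experiment 1 and 4.83, 7.12, 6.67 and 6.24 in experiment 2 (1451161_PM_a_at). It rose by 2.255 log2 in the tumour (SE 0.089, 4.77-fold), and both experiments gave nearly that value, 2.22 and 2.29. Ms4a7, a membrane protein of the MS4A family found mainly on macrophages, read 5.22, 7.74, 8.15, 8.19 and 7.76 in experiment 1 and 4.75, 7.14, 7.08 and 6.44 in experiment 2 (1424754_PM_at). Its tumour level was 2.455 log2 above healthy (SE 0.094, adjusted p = 0.0024 in limma's fit), and no treated tumour lay below the sham-treated one. The second Ms4a7 probe set, 1445365_PM_at, stayed between 2.43 and 3.44 on all arrays and differed between tumour and healthy by 0.10 and 0.14, so the values of Ms4a7 rest on 1 probe set. Of the 8 other MS4A genes tested, 6 rose and 1 fell in the tumour, led by Ms4a6d (5.515), Ms4a4b (3.86) and Ms4a6b (3.785).

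Fcgr1, the high-affinity receptor for IgG (CD64), read 4.07, 8.48, 8.18, 8.14 and 7.56 in experiment 1 and 3.45, 7.56, 6.43 and 4.08 in experiment 2 (1417876_PM_at). It had the largest tumour difference of the 10 genes, 4.26 log2 (SE 0.121, 4.41 and 4.11 in the 2 experiments). It read lower at each higher dose, but 8.18 at 1.7 mM and 8.14 at 8.5 mM lay closer than its residual SD of 0.121. Without the sham-treated array of experiment 1 it differed from sham by 0 at 1.7 mM and -0.04 at 8.5 mM, with no test. A second probe set of Fcgr1, 1436625_PM_at, gave smaller tumour differences of 2.07 and 1.45 and also read lower at each higher dose, from 6.78 through 6.29 and 6.11 to 5.85. Of the 5 other Fc receptor genes tested, 4 rose in the tumour, among them the IgG receptors Fcgr4 (3.99) and Fcgr3 (3.72) and the signalling chain Fcer1g (3.76).

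Itgam, the CD11b chain of complement receptor CR3, which monocytes and neutrophils also carry, read 4.11, 6.91, 7.08, 6.45 and 6.46 in experiment 1 and 4.25, 6.21, 5.24 and 3.99 in experiment 2 (1422046_PM_at). Its rise of 2.38 log2 had the widest error of the 10 (SE 0.25, adjusted p = 0.007 in limma's fit), and the experiments differed, with 2.80 and 1.96. Its healthy and 7 d readings lay near the filter of 4.16. Neutrophil markers were also higher in the tumour, where 3 of 6 tested genes rose and S100a8 read 10.14 in the sham-treated tumour of experiment 1. The neutrophil list averaged 4.50 and 3.98 in the healthy and 6.11 and 5.39 in the sham-treated tumour bladders. At 1.7 mM it averaged 5.30, below the sham-treated tumour, where Itgam was at its highest (7.08), and it averaged 5.14 at 8.5 mM and 5.08 at 17 mM. The markers Camp, Ltf, Mmp8 and Mpo did not pass the filter, and the part of neutrophils in the Itgam values was not tested. Its partner chain Itgb2 rose by 3.89 log2, and 4 of the 5 beta2 integrin and ligand genes tested rose, with Itgal at 3.795 and Itgax at 2.82.

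Cd68, a glycoprotein of the lysosomes of macrophages, read 5.44, 8.82, 8.81, 8.53 and 8.28 in experiment 1 and 4.86, 8.28, 7.45 and 5.87 in experiment 2 (1449164_PM_at). It rose by 3.40 log2 in the tumour with the smallest error of the 10 (SE 0.088, 10.6-fold), 3.38 and 3.42 in the 2 experiments. Lyz2, the bactericidal enzyme lysozyme of macrophages and granulocytes, read 9.75, 11.55, 11.64, 11.69 and 11.52 in experiment 1 and 9.19, 10.63, 10.83 and 9.96 in experiment 2 (1439426_PM_x_at). Its rise was the smallest, 1.62 log2 (SE 0.133, adjusted p = 0.00457 in limma's fit), with 1.80 and 1.44 in the experiments. This probe set is of a kind that can bind near-identical transcripts, and the related gene Lyz1 read 3.41 to 3.64 on every array. Of the 12 other lysosomal genes tested, 8 rose and 1 fell in the tumour, by less than Cd68, with Ctsl (1.995), Grn (1.39) and Ctsz (1.335) highest.

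**Figure D2:**
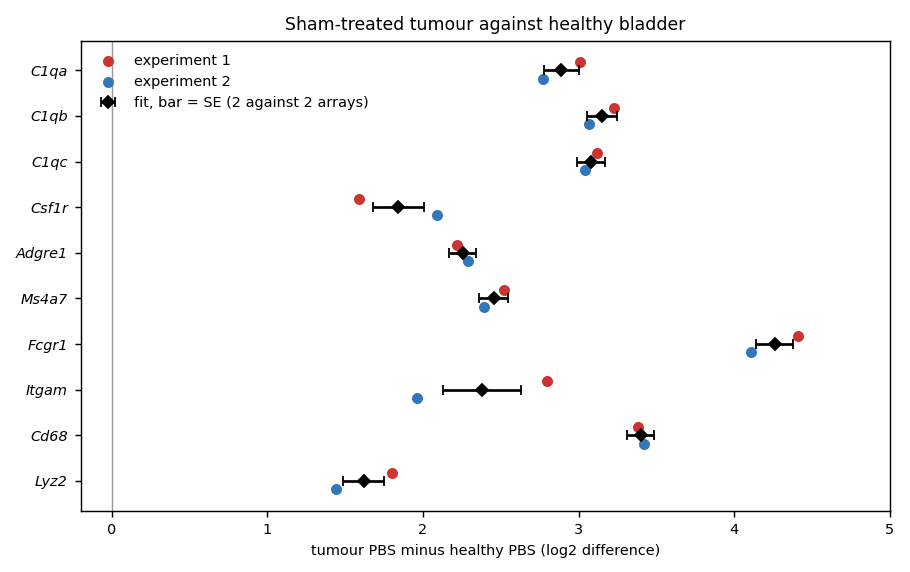
Difference between sham-treated tumour and healthy bladder for each of the 10 genes on the log2 scale, with a coloured point for each experiment and a black diamond and bar for the limma estimate and its standard error. Fcgr1 (4.41 and 4.11) lies farthest from 0, Lyz2 and Csf1r nearest, and Itgam has the widest gap between experiments.

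The doses left the genes high. Against healthy bladders, 10 of 10 stood higher at 1.7 mM, 9 at 8.5 mM and 7 at 17 mM at an adjusted p under 0.05 in limma's fit, where 20.5%, 7.34% and 2.61% of all genes tested did so. The median difference from healthy was 3.05, 2.98 and 2.55 log2 at the rising doses. The exception at 8.5 mM was Itgam (2.13 log2, adjusted p = 0.0507). At 17 mM the exceptions were Csf1r (1.575, adjusted p = 0.0654), Itgam (2.14, 0.0707) and Lyz2 (1.68, 0.0518), all with limma. The sham-treated and healthy arrays are shared by these comparisons.

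Against the sham-treated tumours, 1 of 10 genes fell at 17 mM in limma's fit, a share close to the 10.6% of all genes tested that fell, and 0 of 10 rose, where 15.7% of all genes did. At an unadjusted p under 0.05 the fallen genes were 4 of 10, against 21.1% of all genes. The one that passed was Fcgr1, at -0.845 log2 (SE 0.16, 1.80-fold, adjusted p = 0.0455 with limma). That call was lost without the experiment block (-0.46, adjusted p = 0.901), with the mean of both probe sets (adjusted p = 0.0637) and with no filter (adjusted p = 0.0568). Without the sham-treated array of experiment 1 the Fcgr1 difference was -0.62, with no test possible. Cd68 followed at -0.55 (SE 0.116, adjusted p = 0.0544), C1qc at -0.47 (SE 0.119, 0.0743) and C1qb at -0.40 (SE 0.13, 0.113), none past the threshold in limma's fit. Under other settings Cd68 did pass, with joint quantile normalization, the mean of probe sets, the lowest 50% of genes left out or the variance trend. C1qc passed with joint quantile normalization or the variance trend. In the reported fit C1qa differed by -0.29, Csf1r by -0.265, Itgam by -0.24 and Adgre1 by -0.187, and Ms4a7 (0.052) and Lyz2 (0.06) differed by less than their SE of 0.125 and 0.176. Without the sham-treated array of experiment 1, and with no test, Itgam changed sign to 0.39, C1qa stood at -0.11, Csf1r at -0.64, C1qb at -0.28 and Lyz2 at 0.33, while Cd68 (-0.58), C1qc (-0.41) and Adgre1 (-0.24) moved less. The difference was below 0 for 8 of 10 genes, and for 6466 of the 11969 genes tested. The members below 0 were 9 with all arrays quantile-normalized together and 6 without the block. In the reported fit the median was -0.277 against -0.045 for all genes.

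At 8.5 mM 0 of 10 genes passed limma's adjusted threshold in either direction, where 15.6% of all genes did, and 1, Ms4a7 (0.482 log2, SE 0.125, adjusted p = 0.0945), was higher at an unadjusted p under 0.05, where 19.6% of all genes were. The same count was 0 in limma fits without the block and on jointly quantile-normalized arrays. At 1.7 mM limma called 0 of 10 members and 0% of all genes, and again 1 member, Ms4a7 (0.443 log2, unadjusted p = 0.0341), was higher before adjustment, where 10.1% of all genes were. C1qa stood 0.32, C1qb 0.18 and C1qc 0.23 log2 above the sham-treated tumours at 1.7 mM. Their standard errors were 0.145, 0.13 and 0.119, and these differences did not pass the test. Without the sham-treated array of experiment 1 Csf1r turned from 0.215 to -0.16 at 1.7 mM and from 0.015 to -0.36 at 8.5 mM, and Itgam from -0.25 to 0.38 at 8.5 mM, all with no test.

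A line through the doses (log2 per mM) was fitted with limma over 7 arrays, the healthy PBS and sham-treated arrays of both experiments and the 3 dosed tumours, with the experiment as a block. Its spread thus also takes in how the dosed arrays deviate from the line. It sloped down for 2 of 10 genes, against 14.4% of all genes. They were Fcgr1 at -0.045 per mM (SE 0.01, adjusted p = 0.029) and Cd68 at -0.033 (SE 0.007, adjusted p = 0.0244). Both calls were lost without the block, without the 1.7 mM or the 17 mM array and without any 1 of the 4 PBS arrays, and both held without the 8.5 mM array. Leaving out either healthy PBS array or the sham-treated array of experiment 2 gave the same slopes each time, so those losses are not separate results. With single arrays left out the slope of Cd68 stayed between -0.0365 and -0.0325 and that of Fcgr1 between -0.0489 and -0.0259, the latter without the 17 mM array, and without the block they were -0.0192 and -0.0257. Among the 4 tumour arrays of experiment 1 the 17 mM array was lowest for 8 of the 10 genes, all but Ms4a7 and Itgam. The highest was the 1.7 mM array for 5 genes (C1qa, C1qb, C1qc, Csf1r and Itgam), the 8.5 mM array for 3 (Adgre1, Ms4a7 and Lyz2) and the sham-treated array for 2 (Fcgr1 and Cd68). Of the 30 pairs of neighbours in these orders, 14 lay no further apart than the residual SD of the gene. The orders were not counted over all genes.

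The share of the tumour excess kept is the linear signal above the healthy bladder as a percentage of the same quantity in the PBS-treated tumour, all in experiment 1, and it rests on 1 array per arm with no test. Over the 10 genes its median was 113% at 1.7 mM, 103% at 8.5 mM and 73.0% at 17 mM. Over the 1788 genes raised 2-fold or more in that tumour the medians were 81.9%, 42.5% and 29.9%. At 17 mM the share was 75.4% for C1qa, 70.6% for C1qb and 67.5% for C1qc. Csf1r kept 86.2%, Adgre1 85.8%, Ms4a7 102% and Lyz2 97.1%, while Itgam kept 68.7%, Cd68 65.5% and Fcgr1 50.5%. All 10 genes thus lay above the median of tumour-raised genes at 17 mM. Each share uses 1 probe set per gene. The second Fcgr1 probe set, not used here, read 4.71 healthy, 6.78 sham and 5.85 at 17 mM. At 8.5 mM the shares ran from 68.1% (Itgam) to 144% (Ms4a7), and at 1.7 mM from 80.3% (Fcgr1) to 140% (Csf1r and Ms4a7).

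**Figure D3:**
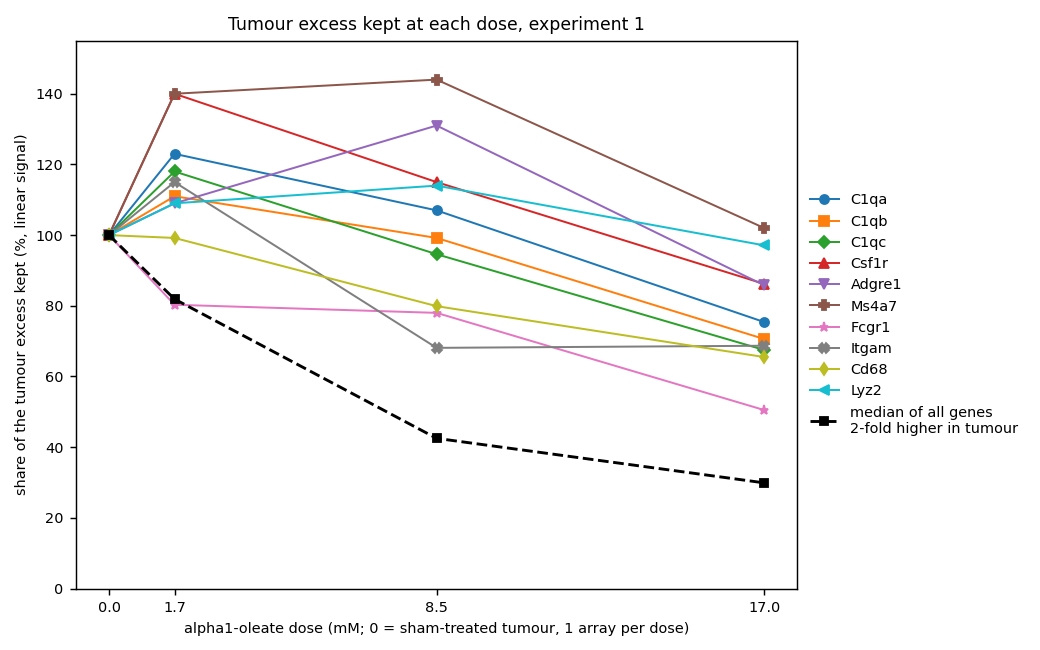
Share of the tumour excess kept (percent of the linear signal of the sham-treated tumour above healthy) against dose in mM, 1 array per dose, with a line per gene and a dashed line for the median of the 1788 genes raised 2-fold or more in the tumour. At 17 mM the 10 genes lie between 50.5% and 102%, and the dashed line is at 29.9%.

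Related lists kept less of their excess at 17 mM in some cases and as much in others, described here without a test of the difference. The 11 other pan-macrophage genes with a 2-fold excess had a median share of 58.3% (12.3% to 72.5%), the 4 other Fc receptors 54.2%, the 6 other MS4A genes 59.9%, the 3 beta2 integrins 39.4%, the 4 lysosomal genes 53.8% and the 4 monocyte genes 63.9%. The 5 complement genes had a median of 81.4% (55.3% to 98.2%) and the 3 resident-type macrophage genes, of 11 listed, 106% (30.4% to 106%). Both medians lay above that of the members. The CSF1 and recruitment list kept 31.0% (8 genes), activated macrophage genes 28.7% (6), neutrophil genes 21.9% (3), T and NK cell genes 34.1% (4) and proliferation genes 30.7% (5). At 1.7 mM the neutrophil genes already stood at 24.8% and the activated macrophage genes at 60.4%, while proliferation genes stood at 86.3%. The members and these lists were chosen with earlier results known, so the gap is a description of these arrays.

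**Figure D4:**
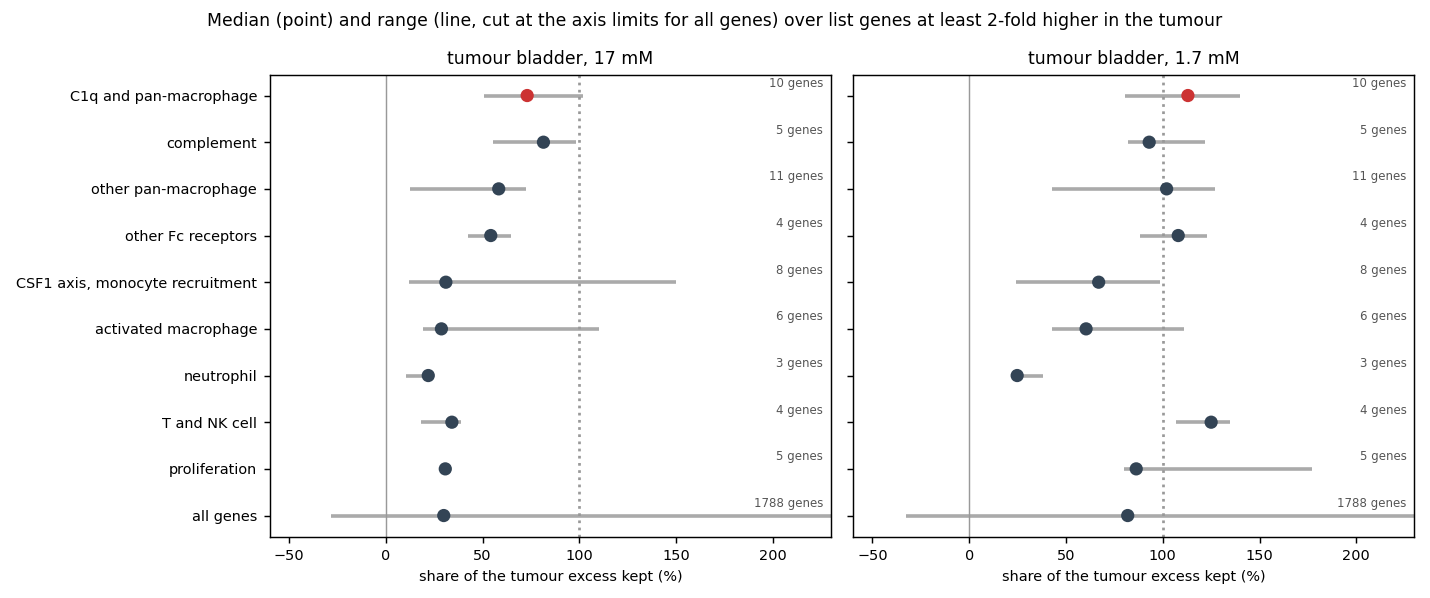
Median (point) and range (line) of the share of the tumour excess kept at 17 mM (left) and 1.7 mM (right), for the genes of each list at least 2-fold higher in the sham-treated tumour of experiment 1; the line for all genes runs past the axis. The C1q and pan-macrophage genes have medians of 73.0% and 113%, and the neutrophil genes 21.9% and 24.8%.

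Of all genes tested 10.6% fell and 15.7% rose at 17 mM, and a list's share near these is no result about that list. Within the lists, 0 of the 13 other pan-macrophage genes tested rose and 2 fell at 17 mM in limma's fit (median -0.615), Spi1, the gene of PU.1, at -0.883 and the endotoxin co-receptor Cd14 at -0.778 log2. Aif1 (-0.842) and Lst1 (-0.803) did not pass. Of the 9 activated macrophage genes, 2 fell, the arginine-degrading enzyme Arg1 at -1.59 and the receptor Trem1 at -0.837, and Cd274 (-1.42) and Il1b (-1.327) did not pass. The resident-type list went the other way, with 7 of 10 higher and 0 lower (median 1.166), led by the hyaluronan receptor Lyve1 (2.63), the carbonyl reductase Cbr2 (2.413) and the haemoglobin scavenger receptor Cd163 (1.818). In the tumour itself 4 of these 10 had risen and 3 had fallen, among them Cbr2 (-3.355) and Lyve1 (-1.86). Lyve1 also marks lymphatic vessels and Cbr2 other stromal and epithelial cells, whose part was not tested.

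Among the partners of the 10 genes, 7 of 17 complement genes rose at 17 mM and 0 fell, and the largest rises were those of the regulators Cd59a (2.615), Serping1 (2.375) and Cd55 (2.272). The proteases C1ra (0.758) and C1s1 (0.588) rose as well, while 0 of the C1q genes passed in either direction in the reported fit. C1qc fell with joint quantile normalization or the variance trend. Of the Fc receptors, Fcer1g fell by 0.795 and Fcgrt, the neonatal Fc receptor, rose by 1.398 log2, and Fcgr4 stood at -0.845 (adjusted p = 0.271 in limma's fit). Ms4a6d fell by 1.162 and Ms4a4d rose by 2.095. Itgb2 fell by 1.20, where its partner Itgam differed by -0.24 with an SE of 0.33, and the gap between the partners was not tested. Of the 12 lysosomal genes, 1 fell, Grn by 0.68, and 0 rose, a share of falls near that of all genes (10.6%).

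Genes of the liver also moved with dose. Of the 4 liver genes tested, 4 rose at 17 mM, and the liver list averaged 4.91 in the healthy and 3.93 in the sham-treated bladder of experiment 1, 3.99 at 1.7 mM, 6.45 at 8.5 mM and 7.47 at 17 mM, with albumin (Alb) at 4.04, 8.83 and 10.15 in the sham-treated, 8.5 mM and 17 mM tumours. In experiment 2 the list averaged 4.80 healthy, 3.74 sham, 4.53 at 7 d and 6.91 on the array labelled healthy, 17 mM, 24 h. Clec4f, the defining marker of Kupffer cells, the macrophages of the liver, read 3.35 to 3.76 on all 9 arrays, below the filter. The Kupffer list as a whole averaged 3.88 and 3.98 in healthy bladders, 4.74 and 4.24 in sham-treated tumours and 4.78 to 5.46 at the doses. Of its 3 genes tested, Marco, Cd5l and C6, 2 rose in the tumour in limma's fit, where 28.6% of all genes did. In experiment 1 Marco read 2.98 healthy, 5.12 sham, 6.96 at 1.7 mM, 5.52 at 8.5 mM and 5.65 at 17 mM. Cd5l read 4.77 healthy, 5.59 sham and 5.18 at 17 mM there, and C6 read 5.86, 6.92 and 6.06. In experiment 2 Marco read 3.08 healthy and 3.31 sham. The part of liver or Kupffer cell RNA in the values of the 10 genes was not tested.

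In experiment 2 the array labelled healthy, 17 mM, 24 h lay between the healthy and the tumour bladder for 9 of the 10 genes, and above both for Lyz2. This position was not counted over all genes. The fitted difference from healthy was 2.40 log2 for C1qa, 2.57 for C1qb, 2.45 for C1qc, 3.055 for Fcgr1, 2.58 for Cd68 and 2.362 for Ms4a7, and it was lowest for Itgam at 1.20. In limma's fit 0 of 10 genes passed the adjusted threshold (adjusted p from 0.0568 to 0.202), as did 0% of all genes, but 10 of 10 were higher at an unadjusted p under 0.05, where 12.6% of all genes were. With the arrays quantile-normalized together limma called 10 of 10, with the variance trend 8 and without the block 6, where 6.58%, 1.65% and 1.05% of all genes were called in either direction. The share of the tumour excess of experiment 2 reached on this array had a median of 62.7%, from 34.1% (Itgam) to 124% (Lyz2), against 22.0% over the 1684 genes raised 2-fold or more in that tumour. The array correlated best with the 17 mM tumour, and on 1 array a wrong label and a response to the agent cannot be told apart. These values are thus not taken as an effect of the agent on healthy bladder.

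On the 7 d array the genes stood closer to healthy. Limma called 0 of 10 members and 0% of all genes, and 8 of 10 were higher at an unadjusted p under 0.05, where 3.72% of all genes were, while 1 (Ms4a7) was called on jointly quantile-normalized arrays, where 0.234% of all genes were. The differences were 1.723 log2 for Ms4a7, 1.393 for Adgre1, 1.0 for Cd68, 0.96 for C1qb, 0.86 for Lyz2, 0.83 for C1qc, 0.705 for Fcgr1, 0.66 for C1qa, 0.635 for Csf1r and -0.05 for Itgam. Adjusted p values ran from 0.487 to 0.966 in limma's fit. The order of the genes was not that of the tumour: Fcgr1 reached 3.37% of its tumour excess and C1qa 8.86%, where Ms4a7 reached 52.5%, Adgre1 42.6% and Lyz2 41.2%. Proliferation genes averaged 4.05 on this array against 3.56 in the healthy bladder and 9.13 in the tumour. Of the 6 neutrophil genes tested, 0 passed at 7 d in limma's fit, adjusted or not, and their list averaged 3.99 against 3.98 in the healthy bladder.

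**Figure D5:**
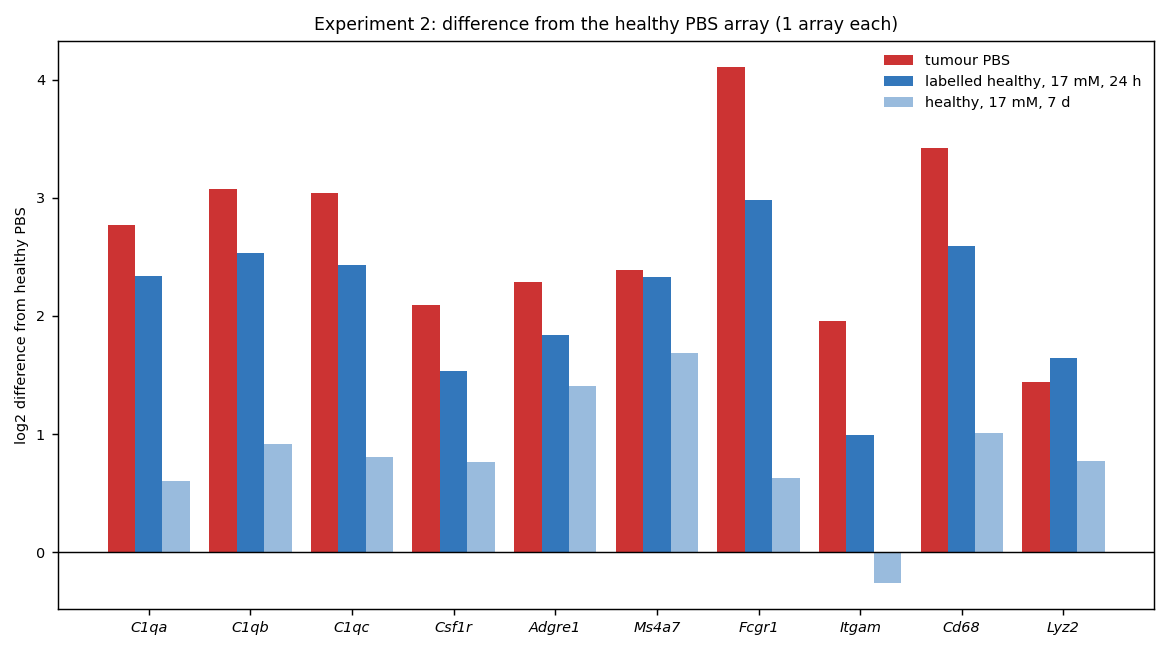
Difference from the healthy PBS array of experiment 2 in log2 units for each of the 10 genes, 1 array per bar, for the sham-treated tumour, the array labelled healthy, 17 mM, 24 h and the healthy bladder 7 d after 17 mM. Ms4a7 (1.69) and Adgre1 (1.41) stand highest among the 7 d bars, and Itgam (-0.26) lies below 0.

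The 10 genes varied together over the 7 arrays other than healthy PBS. Their differences from the healthy bladder of the same experiment correlated pairwise at r = 0.702 to 0.998 with a median of 0.921, a description over 7 arrays that share 2 healthy controls. The genes outside the set whose course was most like the mean of the 10, by the same measure, were Cd53 (r = 0.9965), Lgals9, Ms4a4b, Sh3gl1, Tyrobp, Ly86, Plbd1 and Iigp1 (0.9936). Cd53, a tetraspanin of white blood cells, stood 3.48 log2 above healthy in the sham-treated tumour of experiment 1, 2.88 at 17 mM and 0.58 on the 7 d array. Tyrobp, the adaptor of many myeloid receptors, stood 3.42, 2.85 and 1.12 above healthy on those arrays. Pairwise correlations were not taken for other gene sets, so their height is not shown to be particular to these 10 genes. The proliferation list also averaged high in the tumours of experiment 1 (9.89 sham, 8.25 at 17 mM) and low on the 7 d array (4.05).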

How the data were processed

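The values are log2 intensities that the authors made by RMA and deposited, with RMA and Transcriptome Analysis Console 4.0.1.36 named in the submitters' processing notes. For the genome build, the sources used here give none. Of 45077 probe sets, 28898 named 1 gene, 551 several and 15588 none, 40 were controls, and 28689 were matched by Entrez number. A gene took its probe set with the highest mean, and genes with means in the lowest 30%, under 4.16 log2, did not enter the fits.

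The members and all lists were chosen with earlier results of these data known. The text names all 10 members, up to 3 genes of each other list with the largest difference in a comparison, and the 8 most alike genes. Csf1 and Ccl2 by dose, Cd14, Trem1, C1ra, C1s1 and Serping1 in the tumour, and marker genes such as Mki67, Alb, Clec4f and Lyz1 fall outside that rule and were named after their values were seen.

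Group means of the 7 groups were fitted with limma (R 4.3.3, limma 3.58.1) with the experiment as a block, leaving 1 residual and 2.23 prior degrees of freedom, and p-values were adjusted by Benjamini-Hochberg over 11969 genes. The number marks experiments normalized apart (sorted values deviated by 0.022 log2 within and 0.329 between them), and same-numbered healthy and tumour arrays deviated together (r = 0.647). The slope fit used 7 arrays and left 3 residual degrees of freedom. The scripts were tested on simulated data. The alternatives were no block, joint quantile normalization, other filters, the mean of a gene's probe sets, a trend in the variance, at least 2-fold change, log2 shares, controls of both experiments and leaving out single arrays. Figures used Python 3.11.15 and matplotlib 3.10.9.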

Additional observations from a re-analysis of the deposited data

Results flagged for a closer look

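The difference of the 17 mM tumour from sham was set against that of the array labelled healthy, 17 mM, 24 h from healthy PBS. For 8 of the 10 genes these differences were unlike, by a test of the gap itself in limma's fit. The difference in the tumour minus that on the 24 h array was -2.69 log2 for C1qa, -2.97 for C1qb, -2.92 for C1qc, -2.01 for Adgre1, -2.31 for Ms4a7, -3.90 for Fcgr1 and -3.13 for Cd68, each at an adjusted p of 0.0264, and -1.67 for Lyz2 (adjusted p = 0.0428). Csf1r (-1.67, adjusted p = 0.0564) and Itgam (-1.44, adjusted p = 0.138) did not pass, and 2288 genes of all tested did. Each treated arm is 1 array, and the healthy arm is the array that goes against its label, so the part of the label in these values was not tested. The contrast also equals the gap between those treated arrays minus the gap between sham-treated tumour and healthy PBS. That last gap was 2.89 log2 for C1qa, 3.15 for C1qb, 3.08 for C1qc and 2.255 for Adgre1 in the same fit. It was 2.455 for Ms4a7, 4.26 for Fcgr1, 3.4 for Cd68 and 1.62 for Lyz2. The values lie near its reverse and are not taken as an effect of the agent on healthy bladder. With the 7 d array as the healthy arm 0 of the 10 genes passed (adjusted p from 0.0506 to 0.821 in limma's fit), and 383 genes of all tested did.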

How the results depend on the processing

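The count of members higher in the tumour than in healthy bladder was 10 under each alternative except with the lowest 50% of genes left out (9, where Itgam is filtered out). At 17 mM against sham the count called was 1, and it became 0 without the replicate block, with no filter and with a 2-fold requirement, 2 with the lowest 50% left out, and 3 with joint quantile normalization or the variance trend. With the mean of probe sets it stayed 1, with Cd68 in place of Fcgr1. On the array labelled healthy, 17 mM, 24 h the count was 0, and it became 6 without the replicate block, 10 with quantile normalization, 5 with the mean of probe sets, 7 with the lowest 50% left out and 8 with the variance trend. At 7 d it was 0, and 1 with quantile normalization. For the dose slope it was 2, 0 without the replicate block, 3 (C1qc added) with quantile normalization or the variance trend, and from 0 to 2 when single arrays were left out. For 17 mM against healthy it was 7, and 10 without the replicate block or with quantile normalization. The median share kept at 17 mM was 73.0%, and 87.4% on the log2 scale. Leaving out 1 PBS array leaves the group fit no residual degrees of freedom, so those are values with no test. Of 1020 single member values under the alternatives, 867 kept their side of the threshold or moved within the residual SD, 60 passed, 17 no longer passed and 76 moved further. Many of these values repeat others and are not independent checks. The filters and the variance trend leave an estimate as it is, and so does the mean of probe sets for genes with 1 probe set. For tumour against healthy, leaving out either PBS array of an experiment gives the same value. Of values past the threshold in the reported fit 0 changed sign, while 29 values that had not passed did so. Leaving out the array labelled healthy, 17 mM, 24 h was an alternative chosen after seeing the data. It changed no count of members called in the 9 comparisons where it was tried. That array is alone in its group and is not in the slope fit. Leaving it out could thus act only through the filter and the choice of probe sets. The unchanged counts therefore say nothing about its label.

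Over all genes the counts moved as follows. Without the block they were 3172 instead of 6852 for tumour against healthy, 1217 instead of 3147 for 17 mM and 945 instead of 1872 for 8.5 mM against sham, 36 instead of 0 for 1.7 mM, 590 (17 mM), 804 (8.5 mM) and 1945 (1.7 mM) instead of 356, 1351 and 4758 against healthy, 126 (24 h) and 15 (7 d) instead of 0, and 1125 instead of 3698 for the slope. With quantile normalization 17 mM and 8.5 mM against healthy gave 2201 and 3215, 8.5 mM against sham 3275, 24 h 788 and 7 d 28. For 17 mM against healthy the mean of probe sets gave 684, no filter 202, the 50% filter 577 and the trend 732. For 8.5 mM against healthy no filter gave 878, and for 24 h the mean of probe sets gave 96, the 50% filter 121 and the trend 198. Under quantile normalization 17 mM against sham split into 2157 higher and 2248 lower (main 1875 and 1272), 8.5 mM into 1823 and 1452 (main 1315 and 557), and against healthy 17 mM into 1183 and 1018 (main 312 and 44) and 8.5 mM into 1628 and 1587 (main 879 and 472). Without the block the median of all genes moved to 0.17 log2 for 17 mM against sham and to -0.25 for the 24 h array.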
